A study of Homo sapiens with 8 samples.

Results

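The response of FDX1-overexpressing lymphoma cells to elesclomol was read by RNA sequencing as the difference between FDX1-OE cells given 15 nM elesclomol (ES) for 48 h and FDX1-OE cells given the solvent DMSO, with 2 libraries a side. The cells are WSU-DLCL2, an established human line of diffuse large B-cell lymphoma. Both groups carry the FDX1 overexpression, and by the labels ES is what separates them. How the overexpressing cells were made, and whether they are a clone or a pool, is not given in the sources used here. Members are all gene rows with at least 1 FPKM (fragment counts corrected for gene length and library size) in at least 2 of these 4 libraries, 11859 of the 60592 rows in the files. Control cells of the same line, without the overexpression, had the same DMSO and ES arms with 2 libraries each. Their values are given for the FDX1 level and where the effect of ES is compared between the cells. Their libraries also enter the estimate of spread in every test and the scaling of the libraries. Separate cultures are not stated for the libraries of a group. All p-values therefore measure the spread between these libraries alone, and that spread may be technical.

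Elesclomol binds copper outside the cell and carries it in, where the metal is released in mitochondria. FDX1, ferredoxin 1, is an iron-sulfur protein of the mitochondrial matrix that hands electrons to other enzymes. It reduces the copper bound by elesclomol and supports the attachment of lipoic acid to a few mitochondrial enzymes. Cells meet excess copper and zinc with metallothioneins, small cysteine-rich proteins made on demand by the metal-sensing factor MTF1. They meet damaged mitochondria with the integrated stress response, in which ATF4 raises genes of amino acid supply. Nucleic acids in the wrong place are met by sensors that switch on interferon and, through JAK and STAT proteins, the interferon-stimulated genes.

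FDX1 itself stood at 59.8 and 56 FPKM in the DMSO libraries and at 60.7 and 59.4 FPKM in the ES libraries, against 10.8 and 10.4 FPKM in the control DMSO libraries. The FDX1-OE groups overlapped for FDX1 and the ES effect on it was not called, except as lower after median-ratio scaling (-0.18). Of the 9 B cell markers, 8 were at 1 FPKM or more in each of the 4 libraries, and CR2 was listed at 0. Their summed level was 1580 and 1604 FPKM with DMSO and 1578 and 1573 FPKM with ES, so the label of a B cell line held in both groups. Among 18 markers of T and NK cells only TRAC reached 1 FPKM, in every library. The 12 myeloid markers summed to 2.45 and 2.47 FPKM with DMSO and to 5.00 and 7.51 FPKM with ES, where AIF1, CD68 and TYROBP gave most of the sum and S100A8, S100A9 and MPO were listed at 0. The part of other cells in any result was not tested. In bulk RNA, fewer cells of a kind and less RNA per cell cannot be told apart.

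ES changed a large share of the transcriptome of FDX1-OE cells. By limma on log2(FPKM + 1), with a Benjamini-Hochberg adjusted p below 0.05 as the call, 7344 of 11859 genes changed, 61.9% of those tested. Higher with ES were 5697 genes (48.0%) and lower were 1647 genes (13.9%), and 7806 genes had an unadjusted p below 0.05. Changes of 1 or more on the log2 scale numbered 749 up and 89 down, and changes of 2 or more 104 up and 6 down. The libraries of the 2 groups did not overlap for 9435 genes, 79.6% of those tested. The control libraries entered the estimate of spread behind these calls. A fit of the 4 FDX1-OE libraries alone called 4971 genes higher and 1320 lower. With library weights 4683 were higher and 1343 lower.

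The excess of rises over falls depended on how the libraries were scaled. The median of all genes was shifted by 0.25 towards ES with the values as deposited, by 0.05 after median-ratio scaling and by 0.31 after setting equal FPKM totals outside the mitochondrial genome. After quantile normalisation it was -0.0065. The share of calls that were rises was 77.6% as deposited, 54.7% with median-ratio scaling, 48.7% with quantile normalisation and 82.1% with equal totals. Under all 4 scalings 2372 genes were called higher and 1277 lower. They included 727 of the 749 rises of at least 1, 103 of the 104 rises of at least 2, and all 89 falls of at least 1. Each list below is therefore read against the shift of 0.25 and against 48.0% higher and 13.9% lower over all genes tested. These shares take no account of the level of a gene, and no list was compared with other genes of its own level.

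Direction followed the level of the gene. Genes with a mean log2 value between 0 and 1 had a median change of 0.68, with 78.3% higher and 4.02% lower. Between 3 and 4 the median was 0.28, with 50.9% higher and 9.79% lower. Between 6 and 8 it was -0.10, with 21.6% higher and 41.0% lower. At 8 or more it was -0.40, with 12.2% higher and 66.7% lower. The order of the classes was the same after median-ratio scaling, which multiplies each library by 1 factor and could hardly change it. The classes were not read after quantile normalisation. Part of the trend with level is set by the filter. Through it passed 872 genes with both DMSO libraries below 1 FPKM, of which 818 were called higher. Among the 10924 genes that passed without resting on 1 group alone, 4879 were higher and 1604 lower. Protein-coding genes split into 5003 higher and 1454 lower of 10178, long non-coding RNAs into 379 and 65 of 776, and snoRNAs into 1 and 13 of 57. The 2 ES libraries also differed more from each other than the DMSO libraries did, with a median absolute log2 difference of 0.16 against 0.075. They held 408018 and 403024 FPKM in sum against 445716 and 450451, and 11868 and 12047 genes at 1 FPKM or more against 10866 and 10858.

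**Figure D1:**
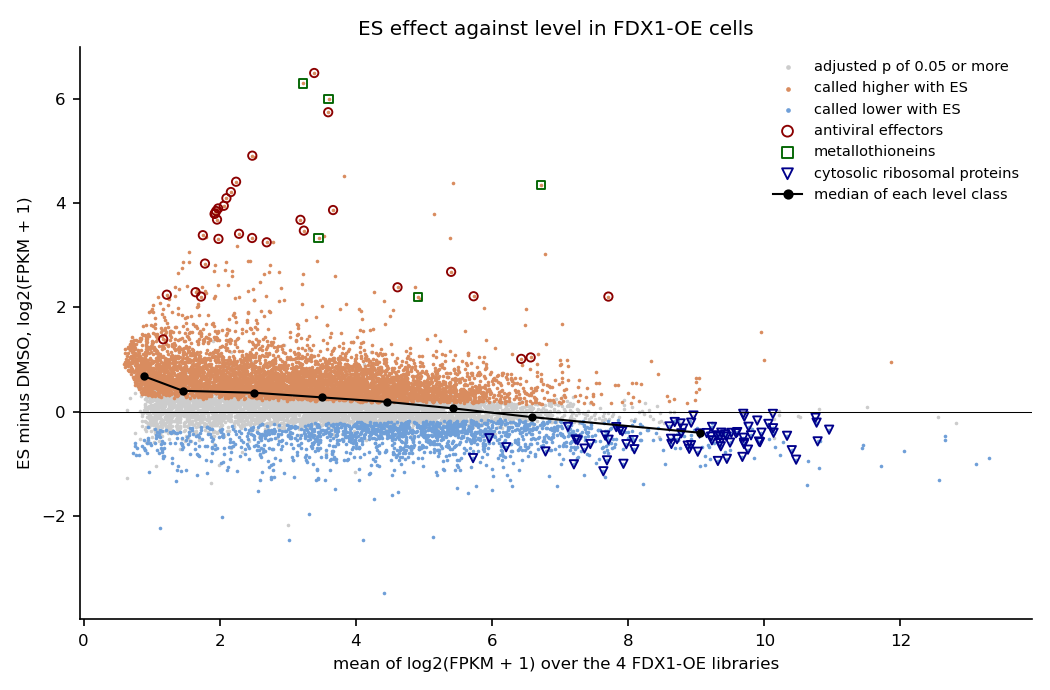
Each point is 1 gene of the 11859 tested, by its mean log2(FPKM + 1) over the 4 FDX1-OE libraries (horizontal) and its ES minus DMSO difference on the same scale (vertical), coloured by call; black dots join the median of each level class. Medians ran from 0.68 in the lowest class to -0.40 in the highest, with antiviral effectors and metallothioneins far above the line and cytosolic ribosomal proteins near or below it.

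ES switched on a set of genes that FDX1-OE cells hardly transcribed in DMSO, and nearly all of them are interferon-stimulated. There were 16 genes below 0.1 FPKM in both DMSO libraries and at 5 FPKM or more in both ES libraries, and no gene went the other way, from 5 FPKM or more to 1 FPKM or less. The highest was XAF1, which blocks the caspase inhibitor XIAP. It was at 0.0182 and 0.0127 FPKM with DMSO and at 24.1 and 36.2 FPKM with ES. IFIT1, which binds RNA lacking the cap marks of the host, went from 0.0383 and 0 FPKM to 10.8 and 16 FPKM. Its relative IFIT3 went from 0.0294 and 0.0504 FPKM to 15.8 and 21.3 FPKM. IFITM1, a membrane protein that hinders virus entry, went from 0.0483 and 0 FPKM to 15.7 and 27.5 FPKM. For each of these the lowest ES library stood far above the highest DMSO library. RSAD2, or viperin, an enzyme that makes a chain-ending nucleotide, went from 0.0795 and 0.0412 FPKM to 13 and 18.2 FPKM. MX2, a dynamin-like GTPase, went from 0.0119 and 0.0255 FPKM to 10.9 and 18.5 FPKM. IFI44 went from 0 and 0.0719 FPKM to 15.4 and 18.2 FPKM and IFI44L from 0.0229 and 0.00933 FPKM to 11.4 and 16.3 FPKM, and the function of both is less settled. OASL, DDX60, DDX60L, SAMD9L and IFIT2 belong to the same group. The other 3 were SLC12A8, a transporter (0.0896 and 0.0832 to 6.24 and 7.7 FPKM), CCR7, the receptor that draws lymphocytes into lymph nodes (0.017 and 0.0301 to 5.19 and 8 FPKM), and ATF3, a stress-induced transcription factor (0.0474 and 0.0397 to 5.14 and 6.08 FPKM). Because the set was defined by these levels, its size of change is a description.

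**Figure D2:**
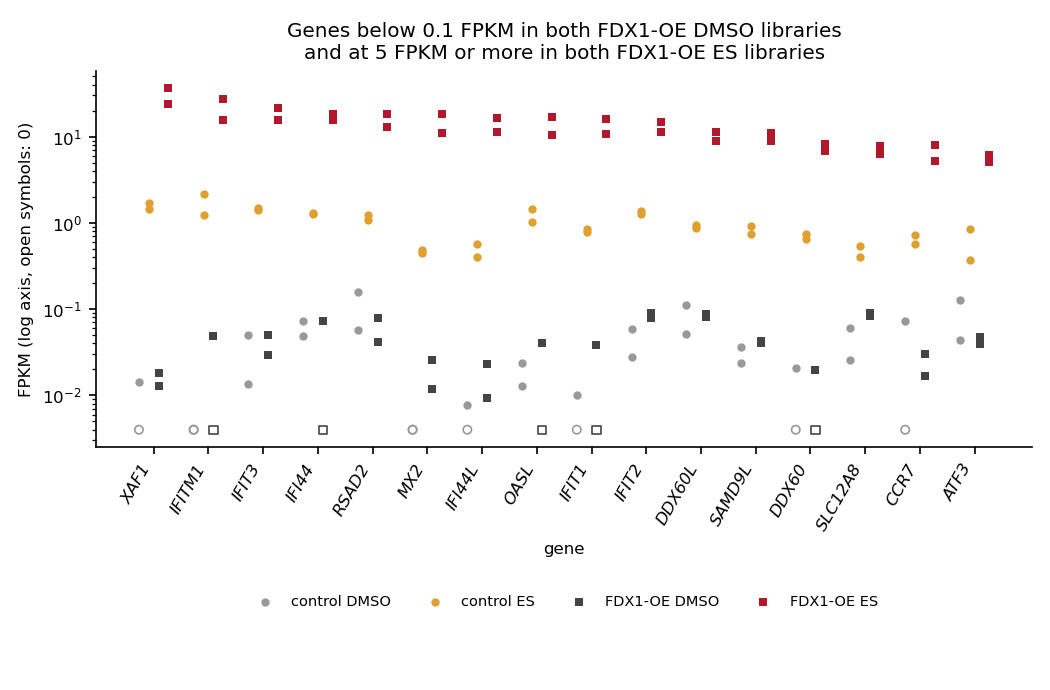
FPKM (log axis) of the 16 genes below 0.1 FPKM in both FDX1-OE DMSO libraries and at 5 FPKM or more in both FDX1-OE ES libraries, with 1 point per library in all 4 groups and open symbols for values of 0. The FDX1-OE ES libraries lie between 5.14 FPKM (ATF3) and 36.2 FPKM (XAF1), the control ES libraries lie below them and above every DMSO library.

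Of the 12 switched-on genes with a promoter in the table, 7 hold the sequence that interferon factors are known to bind. To show where it lies, 5 promoters with a match are shown. Each line gives the 200 bases before the transcription start on the gene's strand, 5′ to 3′, from the RefSeq promoter table (GRCh38.p14), with matches to the interferon-stimulated response element in capitals, written as GAAA, any 2 bases and GAAA or, on the other strand, TTTC, any 2 bases and TTTC. IFIT1 is at chr10:89392423-89392622 and IFIT3 at chr10:89327797-89327996, both on the plus strand. IFI44 is at chr1:78649589-78649788 and IFI44L at chr1:78620248-78620447, both on the plus strand, and DDX60 at chr4:168318753-168318952 on the minus strand.
IFIT1: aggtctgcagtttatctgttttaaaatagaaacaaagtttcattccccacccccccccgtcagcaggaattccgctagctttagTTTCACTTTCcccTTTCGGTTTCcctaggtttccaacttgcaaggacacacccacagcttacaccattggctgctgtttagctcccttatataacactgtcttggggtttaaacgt
IFIT3: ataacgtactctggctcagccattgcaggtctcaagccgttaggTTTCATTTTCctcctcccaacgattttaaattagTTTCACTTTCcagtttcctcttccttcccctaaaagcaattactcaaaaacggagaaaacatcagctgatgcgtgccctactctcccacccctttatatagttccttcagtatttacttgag
IFI44: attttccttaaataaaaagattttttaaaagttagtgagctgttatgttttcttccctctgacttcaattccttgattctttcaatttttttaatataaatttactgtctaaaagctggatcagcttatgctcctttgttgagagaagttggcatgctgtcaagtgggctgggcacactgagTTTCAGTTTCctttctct
IFI44L: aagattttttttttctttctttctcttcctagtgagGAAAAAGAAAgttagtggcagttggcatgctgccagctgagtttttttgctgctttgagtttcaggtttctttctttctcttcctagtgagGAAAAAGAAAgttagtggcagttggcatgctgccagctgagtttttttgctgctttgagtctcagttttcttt
DDX60: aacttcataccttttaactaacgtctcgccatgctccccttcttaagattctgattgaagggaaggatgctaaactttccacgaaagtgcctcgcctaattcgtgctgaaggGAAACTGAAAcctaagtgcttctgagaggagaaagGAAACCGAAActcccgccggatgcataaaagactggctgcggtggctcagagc
IFIT1 carries 2 matches, between 116 and 93 bases before the start, and IFI44 carries 1 whose end is 8 bases before it. The 2 matches of IFI44L lie in a stretch of sequence that repeats within the window.

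That element stood out by size of change among the motifs searched. A promoter of 250 bases before the start was found for 8708 of the 11825 tested genes with a symbol of their own, and both strands were searched. The element was in 3.07% of all 27305 promoters of the table and in 2.50% of those of tested genes. Among genes called higher it was in 2.66% and among genes called lower in 2.67%, so the call alone did not separate promoters with and without it. Among genes higher by at least 2 it was in 21 of 69, 30.4%, and among the 12 switched-on genes with a promoter in 7, 58.3%. Genes with 2 or more matches had a median change of 1.39 over 27 genes, against 0.25 over 8490 genes with none. Over all 218 genes with at least 1 match the median was 0.285, close to that of genes with none. The STAT dimer site TTCNNNGAA was in 8 of those 69 promoters, 11.6%, against 5.64% of tested genes. The NF-kB site, searched as GGG, any 2 bases and TTTCC, was in 2 of 69 against 2.03%, and the antioxidant response element core TGACNNNGC in 9 of 69 against 12.6%. The CEBP-ATF element, written TTGCATCA or TGATGCAA, was in 1 of 69 against 0.356%. A match is a run of letters and no measure of binding, and matches to different motifs may overlap.

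Antiviral effectors rose beyond the switched-on genes, also where they were already expressed with DMSO. Of 33 listed, 31 passed the filter, and 31 were higher with a median change of 3.41. For 21 of them both DMSO libraries were below 1 FPKM. These passed the filter only through their ES level, so their direction was largely set by it. The others did not rest on ES alone, and all of them were higher too. The untested members, IFITM3 and HERC5, were at 0.103 and 0.323 FPKM and at 0.0426 and 0 FPKM with ES. The most changed was MX1, a GTPase that traps viral nucleocapsids, which went from 0.126 and 0.0761 FPKM to 77.9 and 125 FPKM (change 6.50, SE 0.19, adjusted p = 9.73e-07). Members that were already abundant rose too. ISG15, a ubiquitin-like protein joined to other proteins in infected cells, went from 93.2 and 99.6 FPKM to 341 and 592 FPKM (change 2.21, SE 0.21, adjusted p = 7.73e-05). OAS1, which makes the activator of RNase L, went from 25 and 22.3 FPKM to 98.2 and 131 FPKM. IFI6, a mitochondrial and endoplasmic reticulum protein that slows apoptosis, went from 0.415 and 0.918 FPKM to 69.5 and 109.9 FPKM. PLSCR1, a phospholipid scramblase, went from 9.36 and 10 FPKM to 52.6 and 57.4 FPKM. In all 31 the FDX1-OE ES replicate 2 stood above ES replicate 1, yet both stood above both DMSO libraries, and leaving out either ES library left 31 called higher.

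The interferon genes were barely detected, while the pathway between their receptors and the genes above rose. IFNB1 was listed at 0 and 0 FPKM with DMSO and at 0.127 and 0.957 FPKM with ES. IFNL1 and IFNL3 were listed at 0 in 3 of the 4 libraries, and the other interferon genes on the list in all 4. Of the 15 tested receptors, kinases, STATs and regulators, 13 were higher and 0 lower (median 0.61). STAT2, which carries the type I interferon signal, went from 8.42 and 10.1 FPKM to 37.3 and 51 FPKM. IRF9, which binds DNA together with it, went from 1.63 and 1.42 FPKM to 13 and 16.6 FPKM. Feedback inhibitors rose too. USP18, which strips ISG15 from proteins and blocks the receptor, went from 0 and 0.11 FPKM to 24.8 and 37 FPKM, and SOCS1, which inhibits JAK kinases, from 5.69 and 5.05 FPKM to 12.5 and 14.3 FPKM. The shared chain IL10RB went from 8.18 and 8.51 FPKM to 17.2 and 19.2 FPKM, while the lambda receptor chain IFNLR1 was at 9.88 and 9.27 and 9.17 and 9.38 FPKM and was not called, except as lower after median-ratio scaling (-0.25) and quantile normalisation (-0.33).

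Of the 8 interferon regulatory factors tested, 6 rose and 1 fell. IRF7, which drives later interferon production, changed most, from 2.05 and 1.85 FPKM to 52.2 and 86.8 FPKM (change 4.53, SE 0.20, adjusted p = 3.28e-06). IRF1, an inducible activator, went from 1.85 and 1.95 FPKM to 7.13 and 10.4 FPKM. IRF4, a factor of activated B cells and plasma cells, went from 1.54 and 1.55 FPKM to 5.84 and 7.3 FPKM. IRF3, the factor that sensors activate by phosphorylation, was at 39.4 and 41.4 FPKM with DMSO and 32 and 37.8 FPKM with ES and was not called, except as lower after median-ratio scaling (-0.44), after quantile normalisation (-0.30) and without FDX1-OE ES replicate 2 (-0.33). IRF8, a germinal centre factor, fell from 75.3 and 72.9 FPKM to 63.6 and 63.7 FPKM, a call lost without FDX1-OE DMSO replicate 1.

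Sensors of double-stranded RNA and foreign nucleic acid rose as a group, with 15 of 19 higher and 0 lower (median 0.71). DDX58, which encodes RIG-I, went from 0.369 and 0.495 FPKM to 8.05 and 10.2 FPKM. IFIH1, which encodes MDA5, went from 1.59 and 1.39 FPKM to 9.95 and 13.9 FPKM. EIF2AK2, the kinase PKR that stops translation on double-stranded RNA, went from 6.2 and 5.97 FPKM to 29.2 and 28.5 FPKM. ADAR, which edits such RNA, rose from a higher base of 69.6 and 68.1 FPKM to 139.5 and 159 FPKM, and SAMHD1, which depletes nucleotides, from 34.4 and 32.1 FPKM to 71.7 and 71.9 FPKM. TREX1, the exonuclease that clears cytosolic DNA, was at 1.58 and 1.9 and 1.32 and 1.67 FPKM and was not called, except as lower after quantile normalisation (-0.62).

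ADP-ribosyltransferases and nuclear body proteins moved the same way. Of 17 genes, the PARP family with DTX3L, 16 rose and 1 fell, with a median of 0.80. PARP14 went from 0.561 and 0.608 FPKM to 11.7 and 15.1 FPKM, PARP9 from 1.71 and 1.35 FPKM to 15.7 and 17.6 FPKM and its partner ubiquitin ligase DTX3L from 1.7 and 1.4 FPKM to 12.6 and 13.9 FPKM. The exception was PARP1, the DNA-break sensor and the most abundant of them, which fell from 327 and 324 FPKM to 273 and 262 FPKM. All 11 tested genes among SP100 relatives, PML and TRIM proteins rose, with a median of 1.43, while the 7 guanylate-binding proteins on the same list stayed below the filter. SP110 went from 4.36 and 4.1 FPKM to 29.5 and 32.3 FPKM, TRIM22 from 13.7 and 13.3 FPKM to 58.4 and 69.5 FPKM and PML, the scaffold of nuclear bodies, from 4.03 and 3.97 FPKM to 11.6 and 18.9 FPKM.

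Antigen presentation genes rose in class I and were mixed in class II, with more falls than rises. In class I, 13 of 15 genes were higher and 1 lower, with a median of 0.86. HLA-B, a heavy chain, went from 47.4 and 52.1 FPKM to 130.4 and 193 FPKM, and B2M, the light chain shared by class I molecules, from 274 and 267 FPKM to 422 and 473 FPKM. TAP1, a subunit of the peptide transporter, went from 11 and 10.9 FPKM to 31.5 and 44.7 FPKM, and NLRC5, the activator of class I genes, from 2.65 and 2.03 FPKM to 7.65 and 9.49 FPKM. Heavy chains of this family are near-identical copies, and reads may have been split among them. Of 5 immunoproteasome genes 3 were higher (2 after median-ratio scaling), with a median of 0.25 like that of all genes. PSMB9 went from 24.3 and 25 FPKM to 39.5 and 56.9 FPKM, while PSMB8 and PSMB10 were not called. Of the 31 constitutive proteasome genes 0 were higher and 14 lower (median -0.17), among them PSMC1, an ATPase of the cap, from 33.3 and 33.2 FPKM to 23.6 and 22.2 FPKM. Class II had 2 of 15 higher and 5 lower (median -0.073). After median-ratio scaling 1 was higher and 9 lower (median -0.30), and after quantile normalisation 3 and 6. HLA-DPB1 fell from 32.1 and 30.1 FPKM to 19.6 and 22.9 FPKM. The lysosomal protease CTSS rose from 10.5 and 10.9 FPKM to 15.4 and 14.4 FPKM (not called after quantile normalisation, 0.19).

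Metallothioneins rose most among the metal-handling genes. Of 12 listed, 5 passed the filter and all 5 rose. MT1G and MT1H were below 1 FPKM in both DMSO libraries and passed only through their ES level, so their direction was largely set by the filter. MT2A, the main form in most cells, went from 19.3 and 26 FPKM to 382 and 591 FPKM (change 4.35, SE 0.20, adjusted p = 3.46e-06). MT1X went from 12.8 and 13.4 FPKM to 63.8 and 63.1 FPKM, and its 2 ES values were close. MT1G went from 0.625 and 0.416 FPKM to 75.4 and 122 FPKM, MT1H from 0 and 0.102 FPKM to 68.6 and 97.3 FPKM and MT1F from 2.89 and 2.06 FPKM to 27.4 and 41.4 FPKM. The 5 kept their order of direction but not of level, since MT1G and MT1H were near 0 with DMSO and above MT1X with ES. They are near-identical copies in a cluster on chromosome 16, so reads may be shared between them. Their factor MTF1 went only from 4.34 and 4.05 FPKM to 5.28 and 5.47 FPKM, a change of 0.30 that is close to the shift of all genes. It was not called without FDX1-OE DMSO replicate 1 or 2 or FDX1-OE ES replicate 2 or after median-ratio scaling, and became -0.081 after quantile normalisation.

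Promoters of 3 of these genes are printed because they carry the sequence that MTF1 is known to bind in many copies. Each line is the 200 bases before the start on the plus strand of chromosome 16 (RefSeq, GRCh38.p14), with matches to the metal response element core TGCGCNC or TGCACNC on either strand in capitals. They are chr16:56608384-56608583 for MT2A, chr16:56682270-56682469 for MT1X and chr16:56669614-56669813 for MT1H.
MT2A: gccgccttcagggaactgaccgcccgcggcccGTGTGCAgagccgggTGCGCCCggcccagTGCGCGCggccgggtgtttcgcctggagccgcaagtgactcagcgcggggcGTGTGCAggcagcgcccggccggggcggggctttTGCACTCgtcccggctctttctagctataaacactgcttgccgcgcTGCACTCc
MT1X: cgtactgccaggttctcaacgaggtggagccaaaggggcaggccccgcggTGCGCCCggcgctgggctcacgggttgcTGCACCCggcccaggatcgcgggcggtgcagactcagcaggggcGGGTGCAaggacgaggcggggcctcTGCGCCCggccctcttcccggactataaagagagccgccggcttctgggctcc
MT1H: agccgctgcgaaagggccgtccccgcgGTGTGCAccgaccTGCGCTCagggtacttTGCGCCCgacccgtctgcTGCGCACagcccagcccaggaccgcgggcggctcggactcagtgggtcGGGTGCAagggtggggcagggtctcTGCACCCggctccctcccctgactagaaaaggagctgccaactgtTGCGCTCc
These windows hold 6, 4 and 7 matches. The core is short and common. In the 250-base windows it was in 33.9% of tested genes, 33.5% of genes higher and 35.7% of genes lower, so a single match carries little. Genes with 2 or more matches had a median change of 0.22 over 863 genes, against 0.26 over 5753 genes with none.

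Zinc transporters were mixed, with 10 of 18 higher and 3 lower, a median of 0.28 as deposited that became -0.046 after quantile normalisation. SLC30A1, the plasma membrane zinc exporter and a known MTF1 target, went from 2.16 and 1.86 FPKM to 4.89 and 4.64 FPKM. The Golgi transporter SLC39A9 changed more, from 11.8 and 11.6 FPKM to 23.7 and 30.8 FPKM, and the uptake transporter SLC39A4 fell from 13.7 and 11.9 FPKM to 6.24 and 8.07 FPKM. Copper genes did not move as a group, with 4 of 10 higher and 1 lower and a median of 0.059 that became -0.15 after median-ratio scaling, -0.23 after quantile normalisation and -0.080 without FDX1-OE ES replicate 2 (0.24 without replicate 1). The importer SLC31A1 was at 7.56 and 7.44 FPKM with DMSO and 7.35 and 7.27 FPKM with ES (95% interval of the change -0.23 to 0.17), and was called lower only after median-ratio scaling or quantile normalisation. ATP7A, the copper-exporting ATPase, went from 1.22 and 0.983 FPKM to 2.07 and 2.11 FPKM (not called after quantile normalisation, 0.12), and the assembly factor COX19 from 3.05 and 3.14 FPKM to 5.47 and 6.1 FPKM. SCO2, which delivers copper to cytochrome c oxidase, fell from 5.14 and 4.01 FPKM to 2.03 and 2.33 FPKM. The copper chaperones ATOX1 and CCS had overlapping groups and were not called.

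Genes next to FDX1's own chemistry moved in both directions. Of 17 genes of protein lipoylation 5 were higher and 2 lower, with a median of 0.054 that became -0.16 after median-ratio scaling and -0.00032 without FDX1-OE ES replicate 1. GCSH, the lipoylated H protein of glycine cleavage, fell from 45.4 and 48.8 FPKM to 33.7 and 25.7 FPKM, and MCAT, which starts mitochondrial fatty acid synthesis, from 15 and 14.8 FPKM to 9.13 and 10.7 FPKM. DLST, the lipoylated subunit of the 2-oxoglutarate dehydrogenase complex, rose from 39.2 and 39.3 FPKM to 54.3 and 60.4 FPKM. The ferredoxin reductase FDXR went from 4.97 and 4.83 FPKM to 6.45 and 7.77 FPKM, but the call was lost without FDX1-OE DMSO replicate 1 or 2 or FDX1-OE ES replicate 2 and after median-ratio scaling. Iron-sulfur assembly had 9 of 25 higher and 4 lower, with a median of 0.18 that became -0.023 after median-ratio scaling. The scaffold ISCU went from 25.5 and 26.3 FPKM to 38.8 and 40.9 FPKM.

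Of 14 iron-handling genes 8 were higher and 1 lower, with a median of 0.29 near the shift of all genes. After median-ratio scaling 5 were higher and 4 lower (median 0.060) and after quantile normalisation 7 and 5. Some members moved far. Ferritin, the iron store, rose in both chains, with FTH1 from 570.4 and 590.4 FPKM to 1474 and 1897 FPKM and FTL from 704 and 741 FPKM to 1342 and 1559 FPKM. HMOX1, which degrades haem and releases iron, went from 2.54 and 2.66 FPKM to 30.7 and 42.6 FPKM (change 3.37, SE 0.15, adjusted p = 2.97e-06). Haem synthesis had 9 of 14 higher and 1 lower and a median of 0.35. After median-ratio scaling, and also after quantile normalisation, 4 were higher and 1 lower, with a median of 0.13. ALAS1, the rate-limiting enzyme, went from 33.3 and 33.1 FPKM to 55.6 and 62.6 FPKM, and the haem transporter SLC48A1 from 3.6 and 4.03 FPKM to 10.2 and 11 FPKM. PCBP1, an iron chaperone and RNA-binding protein, fell from 267 and 279.8 FPKM to 156 and 157 FPKM.

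Among targets of the antioxidant factor NRF2, 12 of 21 were higher and 1 lower, and the median of 0.26 was that of all genes. A few moved far. NQO1, a quinone reductase, went from 2.33 and 2.7 FPKM to 13.4 and 15.2 FPKM, and EPHX1, an epoxide hydrolase, from 0.54 and 0.426 FPKM to 7.65 and 9.7 FPKM. SLC7A11, the cystine importer, went from 1.4 and 1.1 FPKM to 5.97 and 5.13 FPKM. Enzymes that remove peroxide and superoxide mostly did not follow, with 4 of 22 higher and 8 lower. SOD1 fell from 239 and 247 FPKM to 158 and 183 FPKM, PRDX1 from 572 and 562 FPKM to 431 and 404 FPKM (not called after quantile normalisation, -0.11) and TXN from 98.5 and 104 FPKM to 71.1 and 74.8 FPKM, while mitochondrial TXNRD2 rose from 3.89 and 4.42 FPKM to 8.5 and 12.7 FPKM.

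Genes of the integrated stress response rose, with 14 of 18 genes higher and 0 lower (median 0.52). ATF5, a mitochondrial stress factor, went from 70.7 and 72.6 FPKM to 218 and 248 FPKM (change 1.68, SE 0.07, adjusted p = 2.14e-06). SESN2, which restrains mTORC1 when leucine is low, went from 9.55 and 8.57 FPKM to 25.7 and 31 FPKM, and CHAC1, which breaks down glutathione, from 1.42 and 0.666 FPKM to 12.1 and 15.8 FPKM. DDIT3, which encodes the pro-apoptotic factor CHOP, was at 8.6 and 8.46 FPKM with DMSO and 6.05 and 6.12 FPKM with ES. Its ES libraries lay below both DMSO libraries, but the change of -0.43 was not called (adjusted p = 0.0712) except after median-ratio scaling or quantile normalisation and in some fits with fewer libraries.

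Genes of amino acid synthesis mostly rose too, and transporters less clearly. Of 22 genes of amino acid and one-carbon synthesis 14 were higher and 5 lower (median 0.52). CTH, which makes cysteine from cystathionine, went from 1.65 and 1.74 FPKM to 10.6 and 11.3 FPKM (change 2.15, SE 0.12, adjusted p = 7.99e-06). PCK2, the mitochondrial PEP carboxykinase, went from 2.77 and 2.67 FPKM to 18.9 and 26.4 FPKM. The serine enzyme PSAT1 went from 32.5 and 33 FPKM to 78.4 and 67.4 FPKM and asparagine synthetase ASNS from 37.1 and 38.6 FPKM to 82.5 and 76.3 FPKM. ALDH1L2, the mitochondrial enzyme that oxidises formyl-folate, appeared at 1.62 and 1.68 FPKM from 0.0234 and 0.0358 FPKM. PYCR3, the cytosolic proline enzyme, fell from 11.6 and 9.04 FPKM to 5.21 and 5.1 FPKM. Amino acid transporters had 12 of 21 higher and 1 lower, with a median of 0.33 against 0.25 over all genes. After median-ratio scaling 7 were higher and 6 lower (median 0.16), and after quantile normalisation 9 and 4 (0.23). SLC6A9, a glycine carrier, went from 0.124 and 0.213 FPKM to 4.85 and 5.11 FPKM, and SLC7A3, a cationic amino acid carrier, from 0.0358 and 0.0354 FPKM to 2.22 and 2.27 FPKM. The glutamine carrier SLC38A5 fell from 32 and 35.2 FPKM to 18 and 18 FPKM.

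Cytosolic aminoacyl-tRNA synthetases did not rise together, with 6 of 20 higher and 5 lower and a median of 0.039 that became -0.19 after median-ratio scaling. WARS1, the tryptophan enzyme and a known interferon target, stood apart, going from 27.1 and 30.2 FPKM to 111 and 122 FPKM. VARS1, the valine enzyme, fell from 73.2 and 75.4 FPKM to 45.3 and 45.9 FPKM. Their mitochondrial counterparts had 7 of 17 higher and 4 lower, with a median of 0.084. After median-ratio scaling 1 was higher and 6 lower (median -0.13), and after quantile normalisation 1 and 7 (-0.16). MARS2 fell from 15.3 and 15.2 FPKM to 10.2 and 8.51 FPKM.

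With the values as deposited, chaperone genes moved both ways in the endoplasmic reticulum and the cytosol and mostly fell in mitochondria. In the endoplasmic reticulum list 7 of 25 were higher and 7 lower (median 0.030), and the falls were larger. After median-ratio scaling 3 were higher and 13 lower (median -0.20), and after quantile normalisation 2 and 7 (-0.080). HSPA5, the main chaperone BiP, fell from 180.0 and 168 FPKM to 82.1 and 65.1 FPKM (change -1.24, SE 0.10, adjusted p = 4.68e-05), and its cofactor SDF2L1 from 39.3 and 39.6 FPKM to 12.1 and 12.6 FPKM. XBP1, a factor of the unfolded protein response, rose from 6.81 and 8.12 FPKM to 11.5 and 11.5 FPKM. Cytosolic heat shock proteins had 7 of 23 higher and 10 lower (median -0.23). After median-ratio scaling these counts were 4 and 13, and after quantile normalisation 5 and 13. HSPA8, the constitutive Hsp70, fell from 1252 and 1247 FPKM to 764 and 597 FPKM, HSP90AB1 from 897 and 896 FPKM to 575 and 484 FPKM and the Hsp90 activator AHSA1 from 211 and 203 FPKM to 112 and 102 FPKM. Of 18 mitochondrial chaperones and proteases 2 were higher and 10 lower (median -0.25). HSPE1, the lid of the Hsp60 chamber, fell from 251 and 241 FPKM to 112 and 99.9 FPKM, and the scaffold PHB2 from 247 and 251 FPKM to 155 and 153 FPKM.

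The route of proteins into mitochondria fell as well, with 4 of 24 import genes higher and 12 lower (median -0.26). TIMM13, a small chaperone of the intermembrane space, fell from 45.6 and 43 FPKM to 18.9 and 23.3 FPKM, and the import pore TOMM40 from 89.9 and 84.9 FPKM to 58 and 57.7 FPKM. TOMM6 had the largest fall of all genes by the rule used for ranking, at 129.6 and 38 FPKM with DMSO and 8.28 and 3.41 FPKM with ES. Its DMSO libraries lay far apart, so the size of its change is poorly fixed (SE 1.12), and it was not called without FDX1-OE DMSO replicate 1 or FDX1-OE ES replicate 2. Among the largest falls were genes of the inner membrane, picked by that rank. UCP2, an inner membrane carrier, went from 131 and 125 FPKM to 50.9 and 43.8 FPKM, ATP5F1D, a subunit of ATP synthase, from 120.3 and 119.9 FPKM to 43.1 and 52.5 FPKM and MICOS13, which shapes cristae, from 17.6 and 17.3 FPKM to 5.15 and 8.03 FPKM.

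Mitochondrial transcripts fell unevenly along the mitochondrial genome. Of its 13 mRNAs 8 were lower and 1 higher as deposited, and 5 lower and 5 higher after quantile normalisation. MT-CO3, a core subunit of cytochrome c oxidase, fell from 9445 and 9789 FPKM to 4553 and 3271 FPKM. MT-ND5 of complex I fell from 2577 and 2596 FPKM to 1141 and 829 FPKM, and MT-ND6, from the other strand, from 483 and 479.7 FPKM to 224 and 150.4 FPKM. MT-ND2 alone rose, from 2632 and 2719 FPKM to 5772 and 4718 FPKM. Its neighbours shared that direction, since all 7 genes from MT-TI through MT-ND2 to MT-TN, 6 of them tRNAs, were higher, by 0.75 to 3.03. Over the whole genome 11 of 22 tRNAs were higher and 10 lower. MT-TK, between 2 mRNAs that fell, went from 8.47 and 8.42 FPKM to 221 and 175 FPKM, and MT-TR, between 2 that were not called, from 12.5 and 11.8 FPKM to 143 and 121 FPKM. MT-TT fell from 196 and 209 FPKM to 91 and 61.9 FPKM. The tRNA gene models are 59 to 75 bases long, so their FPKM depends on few bases and on how fragments crossing into neighbours were counted, whose part was not tested. The 13 mRNAs held 17.4% and 17.6% of all FPKM with DMSO and 14.7% and 11.9% with ES, and for all 13 ES replicate 2 was the lower library. The nuclear RNA polymerase of mitochondria, POLRMT, fell from 31.2 and 32.1 FPKM to 15.7 and 18 FPKM, and SLIRP, which protects these mRNAs from decay, from 93.7 and 89.8 FPKM to 50.9 and 47 FPKM.

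**Figure D3:**
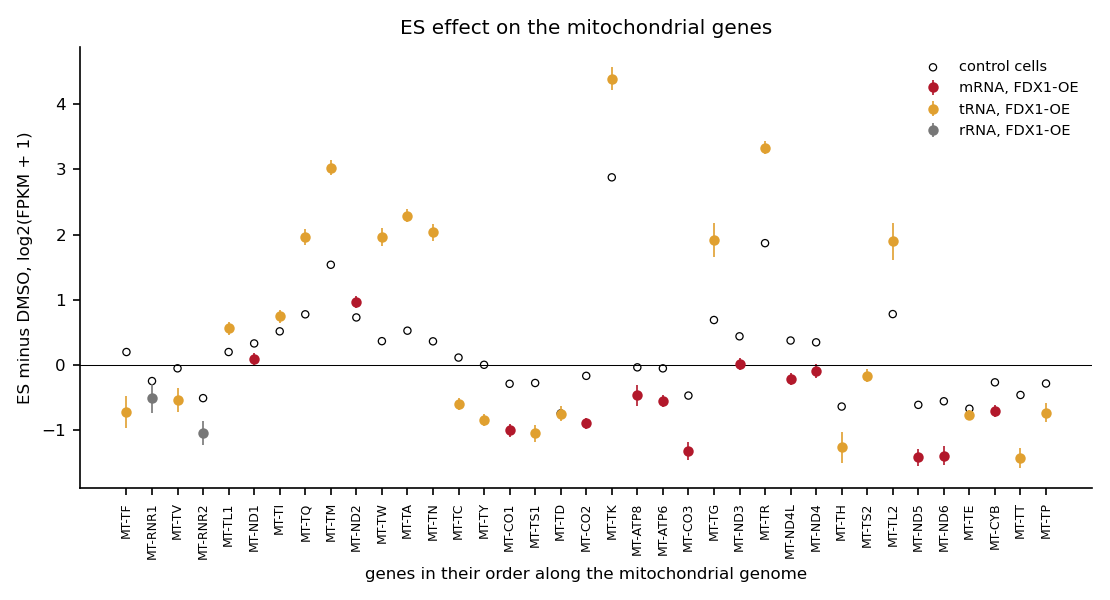
ES minus DMSO difference in log2(FPKM + 1) for the 37 genes in their order along the mitochondrial genome (GENCODE release 29), with filled points and SE bars for FDX1-OE cells and open points for control cells. MT-TI to MT-TN, MT-TK and MT-TR lie above 0, while MT-CO3, MT-ND5, MT-ND6 and MT-TT lie lowest; under quantile normalisation 5 mRNAs were called higher instead of 1.

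Genes of protein synthesis fell from nucleolus to ribosome. Falls were commoner among all abundant genes, at 41.0% for a mean log2 value of 6 to 8 and 66.7% at 8 or more. For lists of abundant genes such as the ribosomal proteins, the share of 13.9% is therefore a low base. How far their falls exceed those of other genes at their level was not tested. All 30 nucleolar biogenesis genes were tested, with 0 higher and 27 lower (median -0.60), and 27 were also lower after quantile normalisation. NOP16 changed most, from 89 and 87.2 FPKM to 34.2 and 29.9 FPKM, and RRS1 fell from 62.8 and 66.3 FPKM to 31.5 and 29.3 FPKM. Of 77 cytosolic ribosomal proteins 0 were higher and 68 lower as deposited (median -0.50), which quantile normalisation turned into 7 higher and 35 lower with a median of -0.14. RPL3 fell from 1911 and 1983 FPKM to 1013 and 1044 FPKM, whereas RPL6 was at 828 and 846 FPKM with DMSO and 852 and 777 FPKM with ES and was not called, with a change that became -0.28 after median-ratio scaling and 0.38 after quantile normalisation. Translation factors had 4 of 43 higher and 22 lower, with EEF1A1 from 2569 and 2641 FPKM to 1318 and 1147 FPKM. EIF4G2, which serves translation without the usual cap complex, rose from 223 and 217 FPKM to 327 and 318 FPKM. Host genes of snoRNAs had 3 of 24 higher and 16 lower (median -0.49), led by SNHG4 from 74.9 and 72.5 FPKM to 32.7 and 20.8 FPKM and SNHG15 from 69.2 and 64.3 FPKM to 28.8 and 31.9 FPKM, and SNHG29 rose from 229.9 and 226 FPKM to 352 and 318 FPKM. Mitochondrial ribosomal proteins fell in 32 of 78 and rose in 12, with MRPL4 from 180.0 and 184 FPKM to 87.2 and 92.8 FPKM.

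Splicing factors had 4 of 34 higher and 18 lower (median -0.25), with the core protein SNRPB from 254 and 246 FPKM to 147 and 165 FPKM, while the kinase CLK4 rose from 3.98 and 4.3 FPKM to 6.91 and 7.3 FPKM (not called after quantile normalisation, 0.29). Nucleotide synthesis had 3 of 22 higher and 10 lower. The 3 that rose supply DNA precursors. RRM2, the small subunit of ribonucleotide reductase, went from 93.2 and 91.6 FPKM to 169 and 175 FPKM, RRM1, its large subunit, from 78.2 and 79.2 FPKM to 129 and 126 FPKM and TYMS, which makes thymidylate, from 92.3 and 94.1 FPKM to 165 and 189 FPKM. NME1, a nucleoside diphosphate kinase, fell from 213 and 201 FPKM to 118 and 108 FPKM, and ADSL, an enzyme of purine synthesis, from 39.4 and 36.6 FPKM to 22.8 and 22.7 FPKM. Glycolysis had 3 of 20 higher and 16 lower (median -0.40), with hexokinase HK2 from 26.8 and 28.1 FPKM to 13.7 and 12.2 FPKM. Of 34 genes that make cholesterol and fatty acids 1 was higher and 18 lower (median -0.24), with fatty acid synthase FASN from 101 and 96.5 FPKM to 40.9 and 41.8 FPKM.

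Cell cycle genes moved in both directions. Of 36 DNA replication genes 17 were higher and 4 lower, with a median of 0.23, just under the shift of all genes. CCNE2, the cyclin that brings cells into S phase, went from 11.4 and 10.2 FPKM to 42.7 and 47.2 FPKM (change 1.96, SE 0.09, adjusted p = 3.38e-06). E2F2 went from 19.4 and 19.7 FPKM to 30.7 and 35 FPKM. Of 30 mitosis genes 9 were higher and 6 lower, with a median of 0.043 that became -0.19 after median-ratio scaling, -0.093 without FDX1-OE ES replicate 1 and 0.16 without replicate 2. CCNB1, the mitotic cyclin, fell from 97.7 and 96.9 FPKM to 59 and 47.3 FPKM, its degrader CDC20 from 132 and 132 FPKM to 86.8 and 79.5 FPKM and the kinase PLK1 from 132 and 111 FPKM to 71.6 and 70.4 FPKM. CDC25C and TOP2A rose, CDC25C from 4.47 and 4.31 FPKM to 8.13 and 9.89 FPKM and TOP2A from 55.6 and 53.9 FPKM to 101 and 79.6 FPKM. CDKN1A, the cyclin-kinase inhibitor p21, went from 0.381 and 0.434 FPKM to 5.47 and 7.06 FPKM. Other genes on the list of p53 targets were mixed, with 11 of 22 higher and 2 lower and a median of 0.30 that became -0.023 after quantile normalisation.

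Some genes of cell death rose on both sides of the balance. Of 30 death receptors, caspases and inflammasome genes 19 were higher and 4 lower (median 0.48), with 7 of the 30 below 1 FPKM in both DMSO libraries. After median-ratio scaling 16 were higher and 5 lower (median 0.29), and after quantile normalisation 13 and 6 (0.17). NINJ1, which ruptures the membrane of dying cells, went from 0.799 and 0.884 FPKM to 8.93 and 11.7 FPKM. GSDME, a pore former cut by caspase 3, went from 0.673 and 0.438 FPKM to 5.78 and 7.78 FPKM, and the inflammatory caspase CASP4 from 0.228 and 0.187 FPKM to 2.66 and 3.94 FPKM. In the BCL2 family 10 of 17 were higher and 1 lower (median 0.49). After median-ratio scaling 8 were higher and 4 lower (median 0.30), and after quantile normalisation 7 and 1 (0.11). The killers BMF, from 9.97 and 9.41 FPKM to 28.4 and 33.3 FPKM, and BCL2L11, or BIM, from 14.9 and 13.3 FPKM to 27.1 and 24.2 FPKM, rose, and so did the protectors BCL2L1, from 21.8 and 21.2 FPKM to 32.9 and 37.3 FPKM, and BCL2A1, from 15 and 12.5 FPKM to 23.7 and 25.4 FPKM. Autophagy and lysosome genes rose widely, with 28 of 38 higher and 0 lower (median 0.48, 0.26 after median-ratio scaling). SQSTM1, the cargo receptor p62, went from 40.8 and 43.4 FPKM to 88.1 and 112 FPKM, MAP1LC3B, which coats autophagosomes, from 34.7 and 34.5 FPKM to 68.5 and 65.7 FPKM and the protease CTSB from 8.61 and 8.85 FPKM to 24.4 and 31.4 FPKM.

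B cell identity genes moved in both directions. The B cell receptor list had 10 of 24 higher and 6 lower, with a median of 0.18 that became -0.048 after median-ratio scaling. The kinase BLK rose from 94 and 97.8 FPKM to 177 and 209.7 FPKM, and the inhibitory receptor CD22 fell from 342 and 349 FPKM to 248 and 229.8 FPKM. Germinal centre genes had 6 of 28 higher and 11 lower, with a median of -0.056 that became 0.0028 with equal totals and 0.064 without FDX1-OE ES replicate 2. BCL6, the factor that keeps germinal centre B cells, fell from 128 and 129.5 FPKM to 90.6 and 88 FPKM, MEF2B, which activates it, from 260.1 and 279 FPKM to 186 and 189 FPKM and RGS13, a regulator of G protein signalling, from 74.3 and 73 FPKM to 43.3 and 28.1 FPKM. The serpin SERPINA9 rose from 42.7 and 43.9 FPKM to 70.2 and 73.5 FPKM. Activation molecules had 12 of 17 higher and 0 lower (median 0.53), with the costimulator CD86 from 13.6 and 13.6 FPKM to 35.3 and 34.6 FPKM. Of 10 plasma cell genes 7 were higher and 2 lower, with the surface receptor SLAMF7 from 0.403 and 0.493 FPKM to 2.75 and 3.27 FPKM and the secretory cochaperone MZB1 from 87.4 and 85.2 FPKM to 59.4 and 65.7 FPKM.

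Chemokines and cytokine receptors rose in 19 of 24 and fell in 2, with 11 of the 24 below 1 FPKM in both DMSO libraries. CCL5 went from 0.917 and 0.82 FPKM to 7.89 and 10.4 FPKM, CCL22 from 0.123 and 0.0855 FPKM to 4.57 and 5 FPKM and IL2RA, the alpha chain of the interleukin 2 receptor, from 0.488 and 0.418 FPKM to 6.03 and 7.3 FPKM. IL4R, the interleukin 4 receptor, fell from 83.2 and 77 FPKM to 43.7 and 46.5 FPKM. NF-kB subunits and feedback genes had 13 of 19 higher and 2 lower (median 0.39), with the inhibitor NFKBIA from 52.9 and 49.3 FPKM to 74.2 and 87.1 FPKM and the adaptor TRAF1 from 6.04 and 6.45 FPKM to 12.2 and 16.5 FPKM.

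Genes of growth signalling moved both ways. Of 18 immediate early genes 6 were higher and 5 lower, and of 15 genes of the DUSP and ZFP36 families 5 and 6. Of 10 genes of the MYC network 5 were higher and 2 lower. After median-ratio scaling the counts of these lists were 5 and 6, 3 and 7, and 1 and 2. After quantile normalisation they were 4 and 5, 2 and 9, and 0 and 3. EGR1, an immediate early factor, fell from 46.7 and 33 FPKM to 6.35 and 6.25 FPKM, FOS from 37.1 and 29.6 FPKM to 10.2 and 9.35 FPKM and the ERK phosphatase DUSP2 from 90.2 and 80.6 FPKM to 27.3 and 29.2 FPKM. Another member of that family, DUSP5, rose from 4.34 and 4.48 FPKM to 11.9 and 14.3 FPKM. MYC, a transcription factor that drives ribosome synthesis, fell from 109 and 117 FPKM to 59.2 and 38.5 FPKM (change -1.22, SE 0.17, adjusted p = 0.000457). TXNIP, which limits glucose uptake, rose from 6.08 and 5.69 FPKM to 25.2 and 27 FPKM. In the cytoskeleton, CORO1A, an actin-binding protein of leukocytes, fell from 303 and 320.3 FPKM to 136 and 125 FPKM, and the intermediate filament gene VIM rose from 26.6 and 28.6 FPKM to 69.2 and 97.6 FPKM. The list of actin cytoskeleton genes, which holds CORO1A, had 8 of 33 higher and 14 lower.

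In control cells ES changed fewer genes, most of them in the direction seen in FDX1-OE cells. There 959 genes were called, 8.09% of the 11859, with 833 higher (7.02%) and 126 lower (1.06%). Called in both cells were 798 genes as higher and 109 as lower, and 9 were called in opposite directions. The difference between the ES effects, tested as an interaction in the same fit, was called for 2360 genes, 19.9%, with 1740 (14.7%) more positive in FDX1-OE cells and 620 (5.23%) more negative. The 104 genes that rose by 2 or more in FDX1-OE cells had a median change of 2.66 there and 0.96 in control cells, 88 were called higher in control cells, and the difference was called for 98. The 89 genes that fell by 1 or more had a median of -1.17 in FDX1-OE cells and -0.28 in control cells, 23 were called lower in control cells and the difference was called for 68. These genes were ranked by their change in FDX1-OE cells, which favours a larger value there. The count of called differences depended on single libraries. Without any 1 of the 2 control DMSO, 2 control ES or 2 FDX1-OE DMSO libraries it was 464 to 793 higher and 202 to 310 lower. Without either FDX1-OE ES library it was 2321 and 2517 higher and 1015 and 1082 lower. After median-ratio scaling it was 848 higher and 1027 lower, and after quantile normalisation 695 and 742, so which side is larger depends on the scaling.

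The groups of genes did not differ between the cells to the same degree. Antiviral effectors had a median of 3.41 in FDX1-OE and 0.97 in control cells, with the difference called higher for 31 of 31. Of these, 21 were tested only through their level in the FDX1-OE ES libraries, which favours a larger value there. MX1 was at 5.96 and 5.35 FPKM with ES in control cells and at 77.9 and 125 FPKM in FDX1-OE cells, an interaction of 3.81 (adjusted p = 0.000367). MX2 had an interaction of 3.35, with ES values of 0.478 and 0.453 FPKM against 10.9 and 18.5 FPKM. Metallothioneins had already risen far in control cells, with MT2A at 186 and 189 FPKM with ES from 32 and 26.7 FPKM, and its interaction was 1.70. Ribosomal proteins had a median of -0.024 in control cells and the difference was called lower for 63 of 77. Nucleolar biogenesis was partly lowered in control cells, with 5 of 30 called and a median of -0.21. Autophagy and lysosome genes differed in 11 of 38, and copper genes in 0 of 10. In the fits that left out 1 library the antiviral count was 27 to 31, the ribosomal count 26 to 72 (lowest without FDX1-OE DMSO replicate 2) and the autophagy and lysosome count 3 to 15 (lowest without FDX1-OE DMSO replicate 1 or control ES replicate 1). Quantile normalisation left 19 ribosomal proteins called lower and turned 1 to higher.

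A few genes went opposite ways in the 2 cells. Of the 9 called in opposite directions, 3 are named here and were chosen after their values were seen. NFKBIA, the NF-kB inhibitor, was at 60.1 and 61.6 FPKM with DMSO and 41.5 and 44.6 FPKM with ES in control cells, a change of -0.49, against 0.64 in FDX1-OE cells. CD83, an activation marker, changed by -0.39 in control cells and by 0.42 in FDX1-OE cells. LTA, lymphotoxin alpha, changed by -0.34 and 0.37. The rises of CD83 and LTA in FDX1-OE cells were no longer called after median-ratio scaling. NEAT1, the long RNA of paraspeckles, had one of the most negative differences, at 8.04 and 6.82 and 12.9 and 9.61 FPKM in control cells and 10.5 and 20.6 and 7.69 and 8.14 FPKM in FDX1-OE cells, though its FDX1-OE DMSO libraries lay far apart and its fall was not called without FDX1-OE DMSO replicate 2 or either FDX1-OE ES library.

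**Figure D4:**
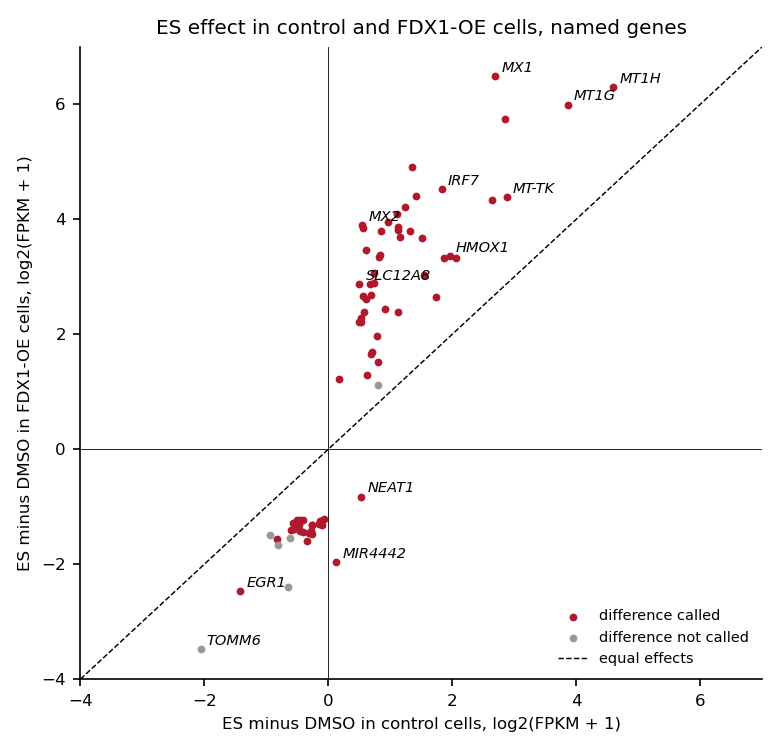
ES minus DMSO difference in log2(FPKM + 1) in control cells (horizontal) and FDX1-OE cells (vertical) for 78 genes ranked by size of change, switch-on or interaction, in red where the difference between the cells was called (72 genes). Rises lie above the dashed line of equal effects, with MX1 and MX2 farther from it than MT1H and MT1G, and most falls lie below it.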

How the data were processed

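RNA was sequenced from 8 libraries of WSU-DLCL2 cells, 2 in each of 4 groups (control or FDX1-OE, DMSO or ES), and the titles gave the groups and replicate numbers. The authors deposited 1 table per library with 1 value for each of 60592 gene rows, and these were read as FPKM from the values themselves. HTSeq, HISAT2, the build hg19 and R 3.2.0 appear in the submitters' processing notes, without a word on what each did. Strand use is not given in the sources used here.

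FPKM was tested as log2(FPKM + 1), with a pseudocount of 1, so changes of low genes are understated. A gene was kept where 2 or more of the 4 FDX1-OE libraries reached 1 FPKM (11859 genes). The values were fitted with limma 3.58.1 (R 4.3.3), with a mean-variance trend and 4 group means over all 8 libraries (4 residual and 4.37 prior degrees of freedom). ES against DMSO in FDX1-OE cells, the same in control cells and their difference were tested two-sided, and p-values were adjusted over all 11859 genes by Benjamini-Hochberg, with 0.05 as the threshold of a call. The fit was tested on simulated data. Read totals are not known. The steps between low FPKM values give depths within 1.03 times of each other over the FDX1-OE libraries and 1.18 times over all 8. Depth sets no interval here.

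The members and the 67 gene lists were chosen with earlier results of these data known, so their counts are descriptions. Genes were named from these lists (whole lists of up to 12 members, otherwise by smallest p, largest rise and largest fall), as the 25 largest rises and falls where the mean log2 value reached 3, the 10 largest where it reached 6, the switched-on genes and the largest differences between the cells, with NFKBIA, CD83 and LTA added later. Alternatives covered 2 other pseudocounts, 3 filters, 3 scalings, a fit of the 4 FDX1-OE libraries alone, library weights, a replicate block and leaving out each library. Promoter sequences are from RefSeq (GRCh38.p14) and were matched by symbol. The order of mitochondrial genes is from GENCODE release 29. A few genes are not reported here.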

Additional observations from a re-analysis of the deposited data

Results flagged for a closer look

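For 149 of the 182 genes named above, the effect of ES differed between FDX1-OE and control cells by the interaction in limma's fit across all genes (Benjamini-Hochberg adjusted p below 0.05). Each value in brackets is the ES effect in FDX1-OE cells less that in control cells, in log2(FPKM + 1), over 2 libraries a group. Under every alternative that tested them, 132 genes with a mean of at least 5 FPKM and all 149 otherwise, their sign was kept. In the fits that left out 1 library, between 95 and 147 of them were still called, and 91 were called in all 8 of these. Without the filter on low values 98 were called, after median-ratio scaling 142 and after quantile normalisation 132. Many of the genes were named for their change in FDX1-OE cells, which favours a larger value there. Some were named for the difference itself, and NFKBIA, CD83 and LTA after their values were seen. The count of 149 is therefore a description. Groups of 2 are too small to look for single libraries that stand apart.

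Among antiviral and switched-on genes the ES effect was larger in FDX1-OE cells for MX1 (3.81), XAF1 (3.56), MX2 (3.35), IFI44L (3.29), IFITM1 (2.999), IFI44 (2.99), RSAD2 (2.98), IFIT3 (2.97), IFIT1 (2.94), IFI6 (2.90), SLC12A8 (2.37), CCR7 (2.20), ATF3 (2.10), PLSCR1 (1.81), OAS1 (1.72) and ISG15 (1.68). In interferon signalling and nucleic acid sensing it was larger for USP18 (3.13), IRF7 (2.70), DDX58 (2.06), IFIH1 (2.05), IRF9 (1.96), EIF2AK2 (1.65), STAT2 (1.52), IRF1 (1.14), IRF4 (1.06), ADAR (0.94), SOCS1 (0.86), SAMHD1 (0.83) and IL10RB (0.40). Nuclear body, PARP and class I genes followed, with PARP14 (2.26), SP110 (2.00), DTX3L (1.98), PARP9 (1.91), TRIM22 (1.56), PML (1.26), TAP1 (1.18), HLA-B (0.97), NLRC5 (0.78) and B2M (0.36). On the negative side stood PSMC1 (-0.55) and HLA-DPB1 (-0.49). Metal, haem and antioxidant genes with a more positive effect were MT1G (2.13), EPHX1 (1.89), MT1H (1.71), MT2A (1.71), HMOX1 (1.41), MT1F (1.27), MT1X (1.03), NQO1 (1.02), SLC30A1 (0.88), SLC7A11 (0.87), SLC48A1 (0.74), FTH1 (0.72), SLC39A9 (0.67), ALAS1 (0.51), FTL (0.51) and DLST (0.31). More negative in FDX1-OE cells were GCSH (-0.67), SOD1 (-0.48), PCBP1 (-0.44), PRDX1 (-0.39) and TXN (-0.37). For stress response and amino acid genes the differences were SLC6A9 (1.22), WARS1 (1.21), CTH (1.19), SLC7A3 (1.05), ALDH1L2 (1.00), SESN2 (0.99), ATF5 (0.98), PCK2 (0.91), ASNS (0.83), XBP1 (0.71) and PSAT1 (0.64). The falls were deeper or the rises smaller for SLC38A5 (-0.74), PYCR3 (-0.70), MARS2 (-0.50) and VARS1 (-0.44).

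Chaperones and nuclear-encoded mitochondrial genes were more negative in FDX1-OE cells, with SDF2L1 (-1.26), MICOS13 (-1.21), UCP2 (-1.14), ATP5F1D (-1.05), HSPE1 (-1.01), TIMM13 (-0.84), HSPA5 (-0.79), SLIRP (-0.72), AHSA1 (-0.65), HSPA8 (-0.63), POLRMT (-0.62), HSP90AB1 (-0.49) and PHB2 (-0.45). Of the mitochondrial genome, the differences were MT-TK (1.51) and MT-TR (1.46). Below 0 lay MT-TT (-0.96), MT-CO3 (-0.85), MT-ND6 (-0.83) and MT-ND5 (-0.80). Protein synthesis, splicing and metabolism gave RRM2 (0.78), TYMS (0.65), RRM1 (0.52) and EIF4G2 (0.41). Negative differences were found for SNHG4 (-1.15), NOP16 (-1.02), SNHG15 (-0.88), RRS1 (-0.85), ADSL (-0.81), HK2 (-0.78), FASN (-0.73), RPL3 (-0.70), MRPL4 (-0.70), NME1 (-0.66), EEF1A1 (-0.63) and SNRPB (-0.52). Cell cycle, death and autophagy genes gave CDKN1A (1.76), CCNE2 (1.501), NINJ1 (1.41), GSDME (1.31), CASP4 (1.09), SQSTM1 (1.05), BMF (0.90), CTSB (0.88), BCL2A1 (0.84), BCL2L1 (0.61), BCL2L11 (0.58), MAP1LC3B (0.57) and E2F2 (0.56). The opposite sign was seen for CCNB1 (-0.85) and CDC20 (-0.65). Genes of B cell identity, cytokines and growth signalling gave CCL22 (1.62), IL2RA (1.51), TXNIP (1.46), CCL5 (1.38), DUSP5 (1.22), NFKBIA (1.14), SLAMF7 (1.01), TRAF1 (1.00), CD83 (0.81), CD86 (0.74), LTA (0.71), SERPINA9 (0.71) and BLK (0.50). Lower values belonged to NEAT1 (-1.35), CORO1A (-1.12), EGR1 (-1.05), MYC (-0.82), DUSP2 (-0.73), IL4R (-0.50), MEF2B (-0.37), MZB1 (-0.35) and BCL6 (-0.35).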

How the results depend on the processing

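Of the 182 genes named, 164 kept their direction and their side of the threshold under all 19 alternatives, 11 lost their call in at least 1 and 7 gained one. Of these, 5 changed sign. FDX1 became -0.18 after median-ratio scaling, MTF1 -0.081 and RPL6 0.38 after quantile normalisation, and the uncalled IFNLR1 and SLC31A1 0.015 and 0.022 with equal totals. Rises with ES in FDX1-OE cells numbered 3535 with a mean of at least 5 FPKM, 3478 after median-ratio scaling and 2758 after quantile normalisation. Falls numbered 2877 and 2907 in these scalings, and 4 falls turned into called rises after quantile normalisation. Leaving out 1 library gave 4436 to 5624 rises and 1160 to 1825 falls. For the difference between the cells, the filter-free fit gave 1079 higher and 318 lower, median-ratio scaling 848 and 1027, quantile normalisation 695 higher, and leaving out 1 library 464 to 2517 higher and 202 to 1082 lower.

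Of the 34 list medians checked, out of 67 lists, 9 changed sign somewhere. After median-ratio scaling these were lipoylation (-0.16), copper (-0.15), cytosolic tRNA synthetases (-0.19), iron-sulfur assembly (-0.023), the B cell receptor list (-0.048) and mitosis (-0.19). After quantile normalisation they were lipoylation (-0.18), copper (-0.23), zinc transporters (-0.046), iron-sulfur assembly (-0.12), the B cell receptor list (-0.021), p53 targets (-0.023) and mitosis (-0.022). Copper was -0.032 with a mean of at least 5 FPKM and -0.080 without FDX1-OE ES replicate 2, where germinal centre genes were 0.064. These were 0.0028 with equal totals, and without FDX1-OE ES replicate 1 lipoylation was -0.00032 (0.11 without replicate 2), mitosis -0.093 (0.16) and copper 0.24. The other lists were not part of this check, and some of them also changed sign. After median-ratio scaling these included the MYC network (-0.027), mitochondrial tRNA synthetases (-0.13), endoplasmic reticulum chaperones (-0.20), immediate early genes (-0.077) and hypoxia genes (-0.15). Their medians were also negative after quantile normalisation. The cause of these changes of sign was not tested.

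With a replicate block 5620 genes rose and 1630 fell, and 1499 and 575 differed between the cells. Deviations of same-numbered libraries correlated at -0.050 to 0.090 over genes, so the numbers were not taken as pairs. With 2 libraries a group the spread rests on 4 residual degrees of freedom, and the fit assumes that a library left alone in its group varies like the others.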

Other observations

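Several lists not described above moved less than those of the interferon response or of protein synthesis. Chromatin regulators had 17 of 32 higher and 4 lower with a median change of 0.26, and ferroptosis regulators 10 of 16 and 3 with 0.39. The TCA cycle had 7 of 21 higher and 4 lower (median -0.0047), the pentose phosphate pathway 1 of 9 and 2 (-0.070), hypoxia genes 3 of 11 and 2 (0.060) and mitochondrial transcription and RNA processing 2 of 25 and 8 (-0.14). Of 4 tested partners of ferredoxin 1 was higher and 0 were lower, and of 5 arrestins related to TXNIP 2 were higher and 1 lower. Of 15 genes often used as references 6 were higher and 5 lower, with a median of -0.100. These medians compare with 0.25 over all 11859 genes tested, a shift that itself depends on the scaling.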
